A study of Solanum lycopersicum with 6 samples.

Results

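The genes described are 9 components of the ethylene signalling pathway of tomato, whose transcripts were read by RNA-seq from fruits of Micro-Tom, a dwarf cultivar. They were chosen by gene identifier under a rule that uses no measured value, though with earlier results of these data known. All 9 were present among the 40229 gene models of the deposited table. They are the receptors ETR1 (Solyc12g011330), NR (Solyc09g075440), ETR4 (Solyc06g053710) and ETR5 (Solyc11g006180), the kinase CTR1 (Solyc10g083610), the membrane protein EIN2 (Solyc09g007870) and the transcription factors EIL1 (Solyc06g073720), EIL2 (Solyc01g009170) and EIL3 (Solyc01g096810). The table's own descriptions name a receptor, a CTR1-like kinase or an EIL protein for 7 of them. NR appears there as Never ripe-2 and EIN2 as an ethylene signaling protein.

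The study compared 3 libraries labelled SlLBD40-KO, a line in which the LATERAL ORGAN BOUNDARIES domain transcription factor SlLBD40 was knocked out, with 3 wild-type (WT) libraries. All were given a time point of 25 days after anthesis, and the sources used here do not say how the line was made, whether it is a single clone, or how many fruits or plants went into a library. The libraries are called knockout 1 to 3 and wild type 1 to 3, after the numbers of the table's columns, which cannot be tied to single sample titles. In the sample titles each genotype has its own prefix of unstated meaning, and no sequencing lane given in the labels holds both genotypes, so whatever these mark cannot be told apart from genotype.

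Ethylene receptors sit in the endoplasmic reticulum membrane and act as brakes: without the hormone they keep the kinase CTR1 active, and CTR1 holds EIN2 inactive. When ethylene binds, EIN2 is released and signals to the nucleus, where EIN3-like (EIL) transcription factors accumulate and switch on response genes. F-box proteins named EBF mark EIL proteins for degradation. In tomato fruit the pathway drives ripening, and a dominant mutation in NR gave the Never ripe mutant its name.

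All libraries carried fruit transcripts, with the fruit MADS-box gene TAGL1 at 164 to 175 TPM in the knockout and 172 to 241 TPM in wild type. Values are TPM, transcript abundance corrected for length and scaled to a common library total, in which levels of different genes can be compared. The gene taken as SlLBD40 (Solyc02g085910, an identifier from memory) stood at 0.77, 2.51 and 3.85 TPM in knockout 1 to 3 and at 1.57, 5.35 and 1.90 TPM in wild type 1 to 3. These ranges overlap, and the transcript does not check the genotype labels. Seed storage transcripts, summed over 42 genes, took 4699, 169 and 431 TPM in the knockout libraries and 4657, 75.0 and 62.6 TPM in the wild-type libraries. On this list library 1 of each genotype stood apart, and 9 of these 42 genes were at 0 in all libraries. The list was cut from 94 genes after its values were seen. All 94 summed to 5071, 503 and 2178 TPM in the knockout and to 14178, 1341 and 1731 TPM in wild type, so that knockout 1 stood less clearly apart. The ripening genes RIN, NOR, CNR, PSY1, PG2a, E4, E8, ACS2 and ACS4 together took 2296, 773 and 8805 TPM in the knockout libraries and 1001, 2186 and 1602 TPM in the wild-type libraries. Knockout 3 was the highest of these. E8 was the largest part of the sum in every library, so the sum says little of RIN and NOR, which are given singly below. In bulk fruit tissue fewer cells of a type and less RNA per cell cannot be told apart.

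The comparison of knockout with wild type asked whether transcripts of the ethylene signalling chain differed between the genotypes. None of the 9 genes passed limma's test, which was fitted over all 18368 genes that passed a filter on low values and called a gene at an adjusted p under 0.05. Over all genes it called 0.0926%, 8 higher and 9 lower in the knockout. The number of the 9 genes at an unadjusted p under 0.05 was also 0, against 17.5% of all genes. All 9 genes passed the filter, and 2 had a higher and 7 a lower mean in the knockout on the log2(TPM + 1) scale. Over all genes tested, 7991 were higher and 10377 lower. The median log2 fold change of the 9 was -0.30, against -0.09 over all genes tested. The groups did not overlap for 2 of the 9, EIL1 and EIL2, both lower in the knockout, against 24.4% of all genes in either direction and 16.1% in that direction.

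**Figure D1:**
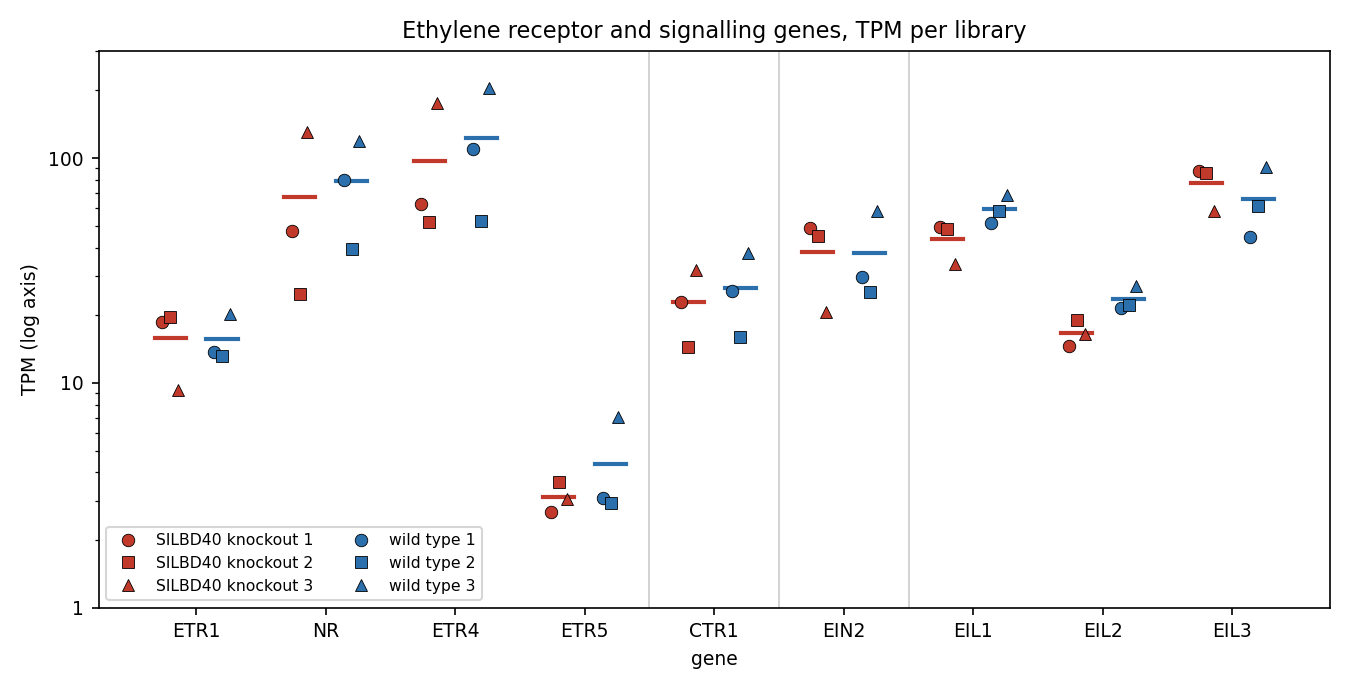
Level of each of the 9 genes (TPM, log axis) in the 3 knockout libraries (left, red) and the 3 wild-type libraries (right, blue); each point is a library, the marker shape gives its number and the horizontal bar is the mean of a genotype. EIL1 and EIL2 are the genes whose red and blue points do not overlap, while NR and ETR4 spread from 24.8 to 130 TPM and from 51.8 to 206 TPM.

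Among the 9 genes NR and ETR4 spread most, whereas the receptors ETR1 and ETR5 spread less than CTR1 and EIN2. ETR4, a receptor of the subfamily with a degenerate histidine kinase domain, was the most abundant of the 9 genes by mean level in both genotypes. It stood at 62.5, 51.8 and 176 TPM in knockout 1 to 3 and at 109, 52.3 and 206 TPM in wild type 1 to 3. Knockout 3 and wild type 3 were both high, the other knockout libraries and wild type 2 were all low, and the groups overlapped over most of their range. The log2 fold change was -0.35 (95% interval -1.79 to 1.10, adjusted p = 0.827 in limma with 3 libraries a genotype).

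NR, the receptor whose dominant mutant allele blocks ripening, stood at 47.2, 24.8 and 130 TPM in knockout 1 to 3 and at 79.9, 39.4 and 119 TPM in wild type 1 to 3. The highest and the lowest value of all 6 libraries were both from the knockout. The highest knockout library exceeded the lowest 5.25-fold, the highest wild-type library exceeded the lowest 3.01-fold, and the log2 fold change between genotypes was -0.42 (95% interval -1.93 to 1.09, limma adjusted p = 0.794). The SD that remained within genotypes was 1.01 for NR and 0.96 for ETR4 on the log2(TPM + 1) scale, above that of 90.9% and 89.7% of all genes tested, whose median was 0.42.

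ETR1, a receptor with an intact histidine kinase domain, stood at 18.7, 19.6 and 9.35 TPM in the knockout libraries and at 13.7, 13.2 and 20.2 TPM in the wild-type libraries. Knockout 3, where NR was highest, had the lowest ETR1 value of all. The genotype means were 15.9 ± 5.68 TPM in the knockout and 15.7 ± 3.90 TPM in wild type (SD, n = 3), with a log2 fold change of -0.02 (95% interval -0.86 to 0.81, limma adjusted p = 0.983). ETR5, of the same subfamily as ETR4, was the least abundant of the 9 genes, at 2.68, 3.64 and 3.05 TPM in the knockout and 3.09, 2.94 and 7.03 TPM in wild type (adjusted p = 0.734). The value of 7.03 TPM in wild type 3 was the only ETR5 value above 3.64 TPM.

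With 3 further receptor genes of the table, ETR2, ETR6 and ETR7, a receptor transcript pool could be summed for each library. Left out of it were 2 gene models described as ethylene receptors. They are Solyc09g065310, at 10.1 TPM in knockout 3 and at 0 elsewhere, and Solyc09g065320, at no more than 0.35 TPM. The pool was 168, 127 and 363 TPM in knockout 1 to 3 and 249.8, 134 and 408 TPM in wild type 1 to 3, and the genotypes overlapped. NR and ETR4 together made up 65.4%, 60.5% and 84.2% of the pool in the knockout libraries and 75.8%, 68.4% and 79.6% in the wild-type libraries. The share was largest in knockout 3 and smallest in knockout 2. The receptors of the pool other than NR and ETR4 summed to 58.1, 50.0 and 57.3 TPM in the knockout libraries and to 60.5, 42.5 and 83.2 TPM in the wild-type libraries.

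**Figure D2:**
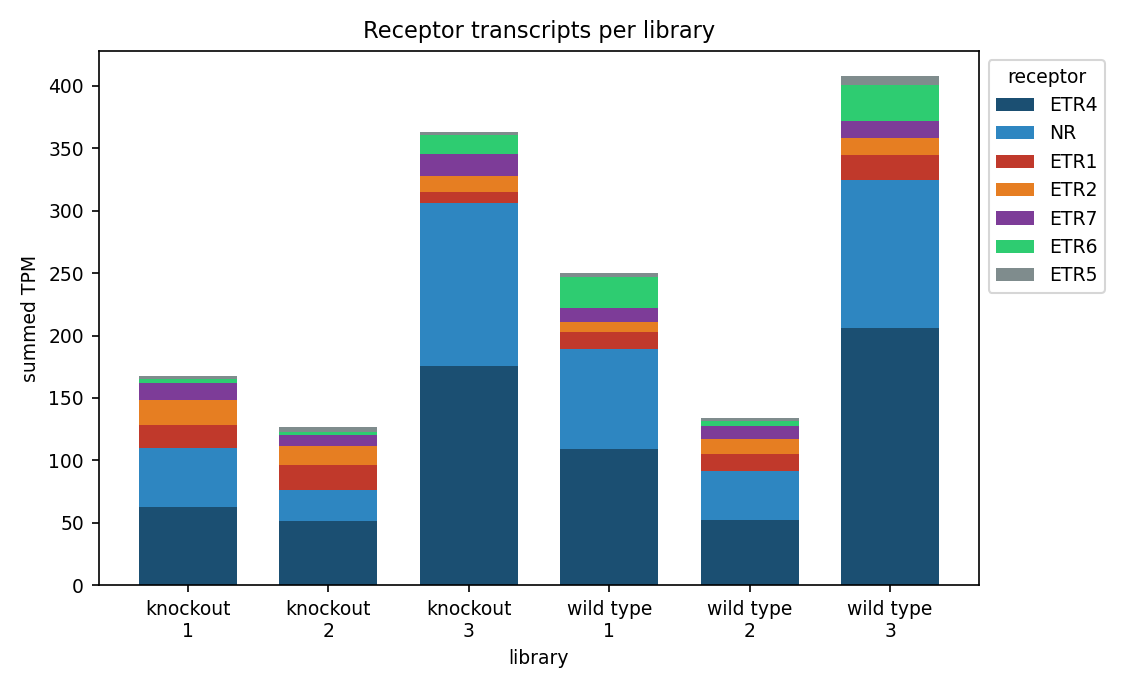
Summed TPM of 7 ethylene receptor genes in each library, knockout 1 to 3 left and wild type 1 to 3 right, with each receptor as a segment of its bar. The bars run from 127 TPM in knockout 2 to 408 TPM in wild type 3, and the ETR4 and NR segments at the bottom account for 60.5% to 84.2% of each.

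ETR6, in the same subfamily as ETR4, varied most of all the ethylene signalling genes tested. It stood at 2.95, 2.78 and 14.8 TPM in the knockout libraries and at 24.8, 3.66 and 29.0 TPM in the wild-type libraries. Knockout 3, wild type 1 and wild type 3 were high and the other libraries low, and the log2 fold change of -1.31 had a 95% interval of -3.32 to 0.70 (limma adjusted p = 0.482). It was -2.17 without wild type 2 and -1.99 without knockout 3, and -0.83 without wild type 3. ETR2, close kin of ETR1, stood at 20.5, 15.1 and 12.7 TPM in the knockout and at 7.76, 12.2 and 13.2 TPM in wild type (log2 fold change 0.51, adjusted p = 0.454). Its groups overlapped as deposited, through knockout 3 and wild type 3, and no longer did so after median-ratio scaling of the libraries. ETR7, described only as an ethylene receptor, ranged from 8.93 to 17.4 TPM in the knockout and from 10.5 to 13.8 TPM in wild type.

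Downstream of the receptors, the kinase CTR1 stood at 22.8, 14.4 and 31.7 TPM in knockout 1 to 3 and at 25.6, 16.0 and 38.0 TPM in wild type 1 to 3. The table describes this gene as ethylene-inducible, and its highest values lay in the same libraries as those of NR and ETR4. The log2 fold change was -0.19 (95% interval -1.14 to 0.77, limma adjusted p = 0.864). The related kinases described as CTR1-like kinase 2, 3 and 4 averaged 20.8, 15.6 and 8.50 TPM in the knockout and 20.9, 17.6 and 9.25 TPM in wild type.

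EIN2, the membrane protein that carries the signal from the receptor complex to the nucleus, stood at 48.6, 45.0 and 20.6 TPM in the knockout libraries and at 29.7, 25.3 and 58.4 TPM in the wild-type libraries. Knockout 3 was the lowest library and wild type 3 the highest. The genotype means were 38.1 ± 15.2 TPM in the knockout and 37.8 ± 18.0 TPM in wild type (SD, n = 3; log2 fold change 0.01, 95% interval -1.02 to 1.05, limma adjusted p = 0.990). A separate gene model, Solyc09g005490, is described as Ethylene-insensitive protein 2. It stood at 10.5, 15.1 and 10.7 TPM in the knockout libraries and at 20.5, 18.2 and 28.4 TPM in the wild-type libraries. Every knockout library was below every wild-type library, with a log2 fold change of -0.83 (SE 0.29, 95% interval -1.50 to -0.15, unadjusted p = 0.0227, limma adjusted p = 0.204). How reads were divided between this model and EIN2 is not given in the sources used here.

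Among the EIL transcription factors, which turn on ethylene response genes, EIL2 and EIL1 had the lowest p-values of the 9 genes, without passing the test. EIL2 stood at 14.6, 19.0 and 16.5 TPM in knockout 1 to 3 and at 21.6, 22.2 and 27.0 TPM in wild type 1 to 3. Every knockout library lay below every wild-type library, and the SD within genotypes, 0.17 on the log2(TPM + 1) scale, exceeded that of only 6.09% of genes tested. The log2 fold change was -0.48 (SE 0.24, 95% interval -1.04 to 0.09, limma adjusted p = 0.359), and a two-sided exact permutation test gave p = 0.1, the smallest that 3 against 3 libraries allow. Any gene whose groups do not overlap reaches this permutation p, so it only restates the separation.

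EIL1 stood at 49.3, 48.2 and 33.8 TPM in the knockout libraries and at 51.4, 58.2 and 68.4 TPM in the wild-type libraries. The groups did not overlap, but knockout 1 and wild type 1 differed by little. The log2 fold change was -0.44 (SE 0.25, 95% interval -1.02 to 0.14, limma adjusted p = 0.412; exact permutation p = 0.1, two-sided). EIL4, whose identifier directly follows that of EIL1, stood at 53.3, 48.0 and 72.3 TPM in the knockout and at 72.6, 79.3 and 97.7 TPM in wild type (log2 fold change -0.53, adjusted p = 0.329). Its groups were separated only by the small gap between knockout 3 and wild type 1, and they overlapped after median-ratio scaling, under which EIL1 and EIL2 stayed apart. Reads that fit both EIL1 and EIL4 could have been split between them, which leaves the single values of these genes uncertain.

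EIL3 stood at 87.7, 85.9 and 57.9 TPM in the knockout libraries and at 44.4, 61.1 and 91.1 TPM in the wild-type libraries. In contrast to the other EIL genes its knockout mean was the higher, 77.2 ± 16.7 TPM in the knockout and 65.5 ± 23.7 TPM in wild type (SD, n = 3), but the highest library was wild type 3 and the groups overlapped (log2 fold change 0.27, 95% interval -0.49 to 1.03, limma adjusted p = 0.731). EIL3 made up 42.8%, 42.7% and 32.1% of the summed transcripts of EIL1 to EIL4 in the knockout libraries, and 23.4%, 27.7% and 32.1% in the wild-type libraries. In these shares knockout 3 and wild type 3 nearly coincided. The sum of these genes was 196 ± 13.2 TPM in the knockout and 232 ± 48.0 TPM in wild type (SD, n = 3).

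**Figure D3:**
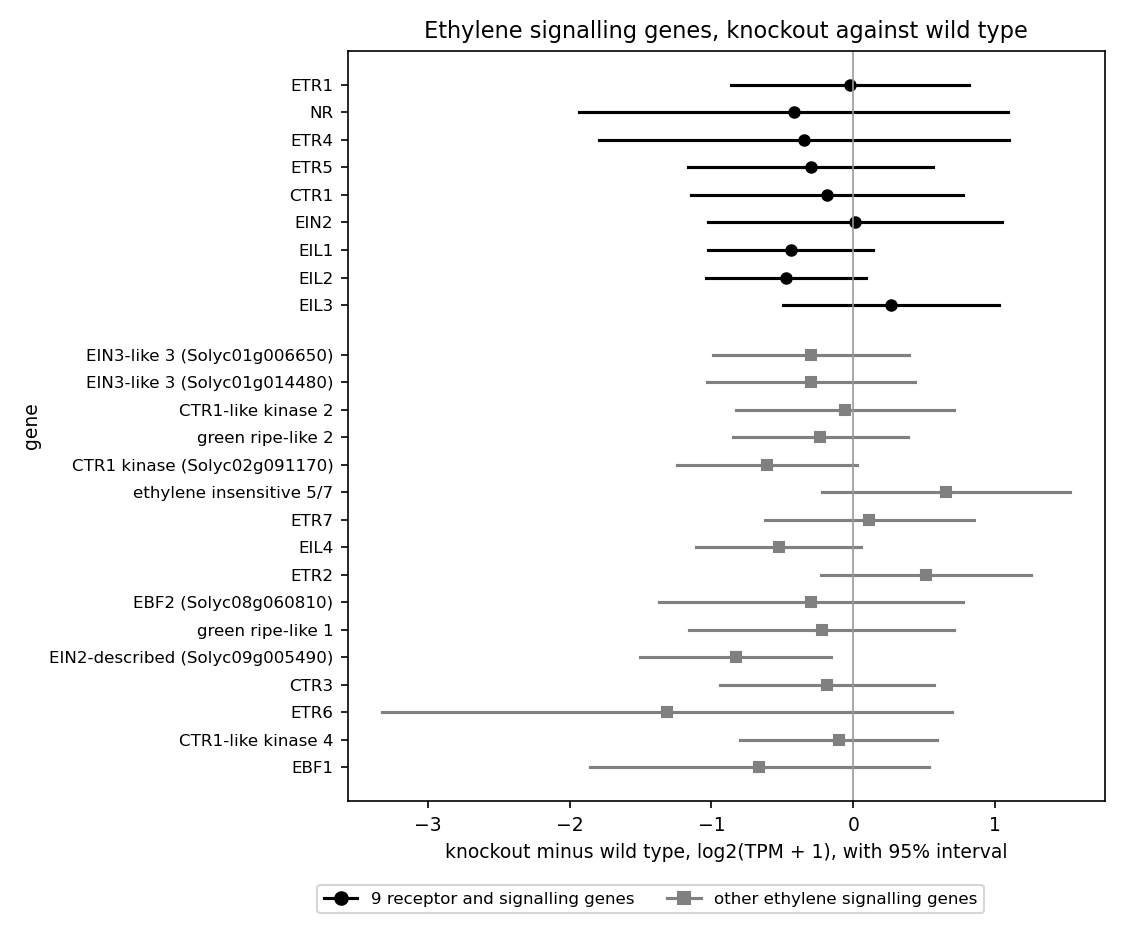
Log2 fold change of knockout over wild type on the log2(TPM + 1) scale (point) with its 95% interval (line), for the 9 receptor and signalling genes (black) and 16 other ethylene signalling genes that passed the filter (grey). Every black interval includes 0, and ETR6, NR and ETR4 have the widest intervals.

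Ranked by mean level, both genotypes placed ETR4 at the top, EIL1 above EIN2, and then CTR1, EIL2, ETR1 and ETR5 in that order. NR and EIL3 changed places between the genotypes. Among neighbours in these orders, EIL1 stood above EIN2 and ETR1 above ETR5 in 6 of 6 libraries, and ETR4 stood above NR, its neighbour in wild type, in 6 of 6. EIN2 stood above CTR1, and EIL3 above EIL1, in 5 of 6. CTR1 stood above EIL2, and EIL2 above ETR1, in 4 of 6 libraries, and NR stood above EIL3, ETR4 above EIL3 and NR above EIL1 in 3 of 6, so the order of these pairs was not settled beyond their spread.

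Across libraries most of the 9 genes fell into 3 profiles, which were grouped after their values were seen. NR, ETR4 and CTR1 had their highest values in knockout 3, wild type 1 and wild type 3. ETR6, EBF1 and the gene described as EIN3-binding F-box protein 2 had the same highest libraries, 3 of the 16 other ethylene signalling genes tested, against 2.78% of all genes. The 9 genes that gave the profiles are left out of such counts, and no test was run on them. ETR1, EIN2 and EIL3 were highest in knockout 1, knockout 2 and wild type 3, as were 3 of the 16 others and 17.0% of all genes. EIL1 and EIL2 were highest in the 3 wild-type libraries, as were 3 of the 16 others and 16.1% of all genes. Among these others, Solyc02g091170 had to be highest there, since it passed the filter only through its wild-type values. After median-ratio scaling these 8 members kept the same highest libraries, and the shares of all genes became 4.98%, 8.22% and 12.9%. The counts of the other genes shifted as well. Solyc01g014480 joined the profile of NR, ETR4 and CTR1, ETR2 and ethylene insensitive 5/7 left that of ETR1, EIN2 and EIL3, and EIL4 left that of EIL1 and EIL2.

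**Figure D4:**
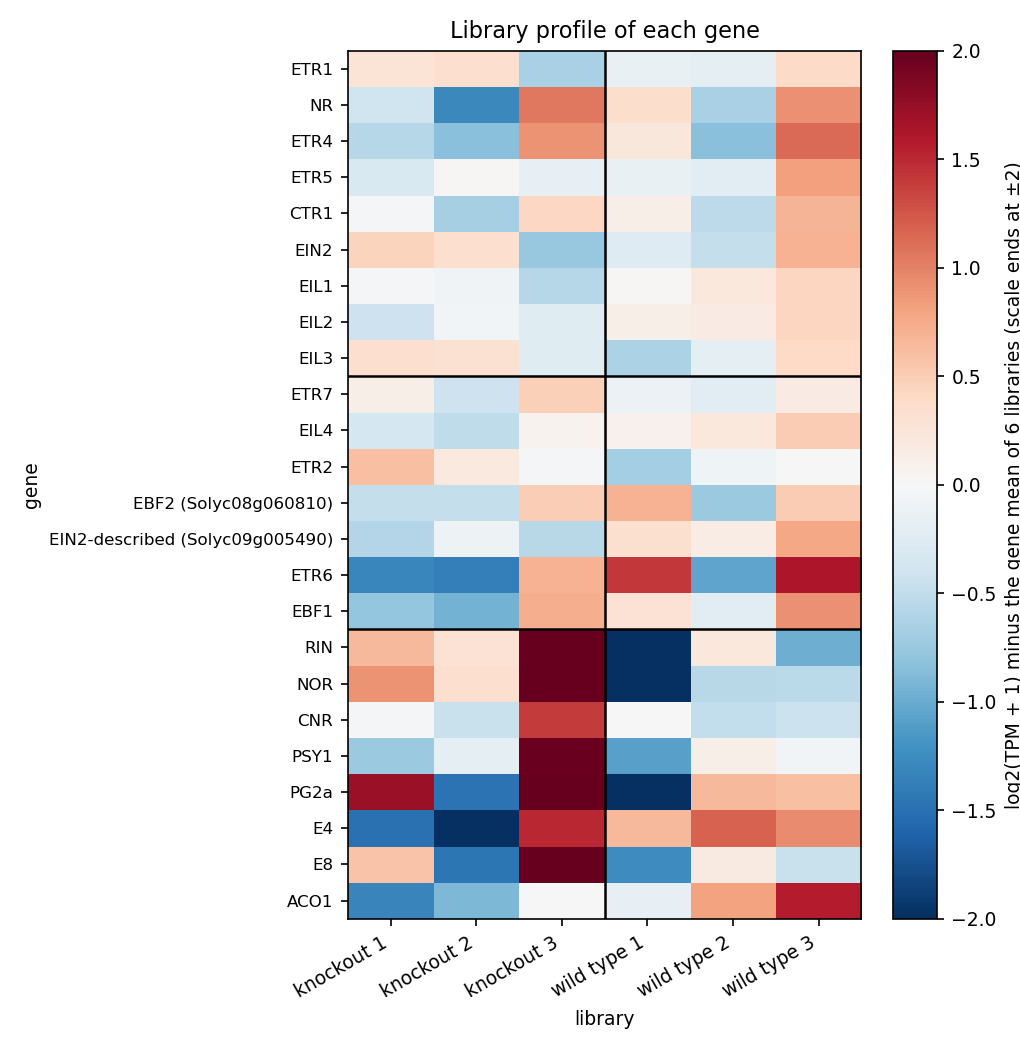
Colour shows log2(TPM + 1) of each gene in each library minus the mean of that gene over 6 libraries, with knockout libraries left and wild-type libraries right. Blocks from the top are the 9 genes, 7 related ethylene signalling genes, and ripening and ethylene synthesis genes. The 7 were picked from the 16 tested, and ACS2 and ACS4 are not drawn. NR, ETR4, CTR1, ETR6, EBF1 and Solyc08g060810 (EBF2) are above their mean in knockout 3, wild type 1 and wild type 3, whereas RIN and NOR are above theirs in every knockout library and far below in wild type 1.

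The ripening genes differed among themselves in how they compared with these profiles. In knockout 3 NR and ETR4 were high together with RIN, the MADS-box regulator of ripening, at 113 TPM, and NOR, a NAC regulator of ripening, at 402 TPM. RIN stood at 27.3 and 20.85 TPM in knockout 1 and 2 and at 1.53, 19.7 and 8.14 TPM in wild type (limma adjusted p = 0.228). NOR stood at 80.4 and 54.0 TPM in knockout 1 and 2 and at 3.29, 28.9 and 28.95 TPM in wild type (limma adjusted p = 0.190). Both were higher in every knockout library than in any wild-type library, as were 8.26% of all genes tested. The other ripening genes overlapped between the genotypes. In wild type 1, where NR and ETR4 were above their means, 6 of the 9 ripening genes were below and 3 above their own means over the 6 libraries. These means were taken on the log2(TPM + 1) scale. RIN at 1.53 TPM, NOR at 3.29 TPM and the pectin-degrading PG2a at 0.04 TPM were each at their lowest there. E4 at 313 TPM, CNR at 93.7 TPM and ACS4 at 1.18 TPM were the 3 above, CNR by only 0.004 on that scale. ACS4 had the same 3 highest libraries as NR and ETR4. Wild type 1 was also rich in seed storage transcripts, as was knockout 1, where NR and ETR4 were below their means. Photosynthetic transcripts, summed over 39 genes for chlorophyll-binding proteins and the Rubisco small subunit, took 1175, 1210 and 2222 TPM in the knockout libraries and 2981, 597 and 809 TPM in the wild-type libraries, and were thus high in knockout 3 and wild type 1 but not in wild type 3. The part of ripening stage, of seed content and of green tissue in the spread of the receptors was not tested. Among ethylene synthesis and target genes, ACO1 stood at 301, 403 and 751 TPM in knockout 1 to 3 and at 672, 1317 and 2236 TPM in wild type 1 to 3 (limma adjusted p = 0.207), and E4 stood at 69.9, 27.9 and 566 TPM in the knockout and at 313, 455 and 386 TPM in wild type.

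Of 45 further gene models listed as ethylene signalling genes, 25 were listed at 0 in all libraries and 16 passed the filter. Of these 16, 0 were called by limma, against 0.0926% of all genes, and 1, Solyc09g005490, was at an unadjusted p under 0.05, against 17.5%. In the knockout 3 had a higher and 13 a lower mean, against 7991 higher and 10377 lower over all genes tested. The median log2 fold change of the 16 was -0.27, against -0.09 over all genes. The groups did not overlap for 3 of the 16, all lower in the knockout, against 16.1% of all genes in that direction: Solyc09g005490, EIL4 and Solyc02g091170, a low gene described as a CTR1 kinase at 0.60, 0.57 and 0.71 TPM in the knockout and 1.74, 1.48 and 1.24 TPM in wild type. Solyc02g091170 passed the filter only through its wild-type values, so its separation was fixed by the filter and is not a result. EBF1, an F-box protein that targets EIL proteins, stood at 17.6, 15.5 and 51.5 TPM in the knockout libraries and at 38.0, 26.3 and 59.0 TPM in the wild-type libraries (log2 fold change -0.66, limma adjusted p = 0.556; -1.19 without knockout 3). The second F-box gene, Solyc08g060810, stood at 58.6, 58.8 and 116 TPM in the knockout libraries and at 133, 48.3 and 117 TPM in the wild-type libraries (log2 fold change -0.30, adjusted p = 0.793; -0.75 without wild type 2 and -0.03 without wild type 1). The largest positive difference was that of the gene described as ethylene insensitive 5/7 (Solyc04g049010), at 51.3, 35.7 and 22.4 TPM in the knockout and 17.6, 18.6 and 30.8 TPM in wild type (log2 fold change 0.65, adjusted p = 0.420), whose groups overlapped as deposited and did not after median-ratio scaling.

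The genes most like 4 of the members were sought among 12985 described genes with a mean of at least 5 TPM, by Pearson's r of log2(TPM + 1) over the 6 libraries. With so many genes and 6 points, high values of r arise easily, and r is given as a measure of likeness only. For ETR4 the closest were lipoxygenase D (Solyc03g122340, r = 0.999), 3-phosphoinositide-dependent protein kinase-1 (Solyc11g007760, r = 0.993) and a fumarate hydratase (Solyc09g075450, r = 0.992). Lipoxygenase D, an enzyme of jasmonate synthesis, stood at 10.3, 8.83 and 31.2 TPM in the knockout and 18.7, 9.03 and 38.0 TPM in wild type. For NR they were the same fumarate hydratase (r = 0.980), whose identifier directly follows that of NR, cystathionine gamma synthase (r = 0.978) and a carboxypeptidase (Solyc04g015340, r = 0.971). Cystathionine gamma synthase (Solyc02g067180), an enzyme of the methionine pathway, stood at 101.5, 59.8 and 487 TPM in the knockout and 218, 91.1 and 273 TPM in wild type.

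For CTR1 the closest genes were an anion:sodium symporter (r = 0.984), the same fumarate hydratase (r = 0.972) and S-adenosylmethionine decarboxylase (r = 0.970), an enzyme of polyamine synthesis. For EIN2 they were a carbamoyl-phosphate synthase large chain-like gene, a SIT4 phosphatase-associated gene and a BAH domain gene, with r between 0.997 and 0.998. An r above 0.9 was reached by 36 genes for NR, 41 for ETR4 and 27 for CTR1, against 944 for EIN2.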

How the data were processed

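Total RNA was extracted from fruit with TRIzol, with 3 biological replicates per genotype, per the labels' protocols. Cufflinks, HISAT2, StringTie and TopHat2 are the tools listed in the submitters' processing notes, with neither their roles nor versions; a genome build and an annotation are not given. The deposited table names no unit. Its values sum to 987932 to 994646 per library and were treated as TPM as deposited by the authors. TPM keeps no read depth, so counting error is unknown. A gene entered the fit when 3 or more libraries reached 1 TPM. Limma 3.58.1 (R 4.3.3) was run on log2(TPM + 1), its prior variance following mean level, and p-values were adjusted by Benjamini and Hochberg's method over all 18368 genes; fold changes on this scale understate changes of low genes. The script was checked on simulated data with independent noise of the same SD for every gene. Genes of the real data differ in SD, so this checks the code only. The labels call the replicates biological but do not say whether plants, fruits or pools of fruit were replicated, so the p-values reflect the spread among libraries.

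The members and lists were chosen with earlier results of these data known. Related genes were taken by description or by 8 identifiers from memory, 1 of which was dropped for its description. All 9 members, tested related genes, and the 3 genes most like NR, ETR4, EIN2 and CTR1 could be named. The seed storage list left out, after its values were seen, genes described as lipid-transfer or inhibitor proteins, keeping 42 of 94. No table identifier matched the reference table, and no sequence is printed. Figures used matplotlib 3.10.9.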

Additional observations from a re-analysis of the deposited data

How the results depend on the processing

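None of the 9 genes and none of the 16 related genes was called by limma under any alternative, with members' adjusted p from 0.319 for NR upward. An unadjusted p under 0.05 was reached by 0 members in each. Without wild type 3, 3 members were lower in the knockout and the members' median log2 fold change was 0.11. Under median-ratio scaling 6 were lower, with a median of -0.20, and without the seed-rich libraries 9 were lower, with a median of -0.26. EIL1 (-0.63 to -0.27) and EIL2 (-0.57 to -0.36) were lower in the knockout under every alternative run, while the sign of EIN2, ETR1, NR, ETR4, ETR5, CTR1 and EIL3 depended on the libraries or scaling. Under median-ratio scaling the median over all genes became 0.02 in place of -0.09 (log2), and values were 0.087 for ETR1, 0.055 for CTR1-like kinase 2 and 0.0071 for CTR1-like kinase 4, with a reversed sign. Without the seed-rich libraries the sign reversed for EIN2 (-0.33), EIL3 (-0.080) and Solyc08g060810 (0.13). Leaving out single libraries gave ranges of -0.20 to 0.30 for ETR1, -1.05 to 0.12 for NR, -0.88 to 0.13 for ETR4, -0.48 to 0.032 for ETR5, -0.49 to 0.11 for CTR1, -0.22 to 0.40 for EIN2, 0.02 to 0.53 for EIL3, -2.17 to -0.83 for ETR6, -1.19 to -0.35 for EBF1, -0.75 to -0.03 for Solyc08g060810, 0.38 to 0.95 for ethylene insensitive 5/7, -0.29 to 0.23 for CTR1-like kinase 2, -0.10 to 0.35 for ETR7, -0.48 to 0.19 for green ripe-like 1, -0.38 to 0.053 for CTR3 and -0.27 to 0.030 for CTR1-like kinase 4. Wild type 3 or knockout 2 decided the sign of NR, ETR4, ETR5 and CTR1: without wild type 3, ETR4 was at 0.13, ETR5 at 0.032 and CTR1 at 0.11, and without knockout 2, NR was at 0.12 and CTR1 at 0.10.

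Over all genes the calls became 14 higher under median-ratio scaling, 0 higher and 0 lower with no filter, and 0 and 0 without both seed-rich libraries. Leaving out single libraries gave 0 to 16 higher and 0 to 7 lower, with 0 in both directions without knockout 1 or without wild type 3. A replicate block on the column number gave 0 and 0 calls, with 2276 genes at an unadjusted p under 0.05. With this block limma's unadjusted p fell from 0.533 to 0.246 for NR, from 0.589 to 0.303 for ETR4 and from 0.167 to 0.055 for ETR6. It rose from 0.116 to 0.234 for EIL1 and from 0.0869 to 0.217 for EIL2. Over all genes tested, same-numbered libraries correlated at -0.15 to -0.0001 in their deviations. With 3 libraries a genotype these correlations cannot decide whether the numbers pair the libraries, and the labels do not say. The receptor pool averaged 246.5 TPM in the knockout and 245.5 TPM in wild type after scaling, against 219 ± 126 and 264 ± 137 TPM (SD, n = 3) as deposited. The cause of each shift was not tested. Read depth behind low genes such as ETR5 is unknown.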

Other observations

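GR, the green ripe gene (Solyc01g104340) known from a ripening mutant with reduced ethylene response, did not pass the filter. It was listed at 0.70, 0.83 and 0.58 TPM in knockout 1 to 3 and at 5.18, 0.69 and 0.87 TPM in wild type 1 to 3, so that wild type 1 alone exceeded 1 TPM. Its relatives green ripe-like 1 and green ripe-like 2 averaged 33.2 ± 14.5 and 11.3 ± 1.21 TPM in the knockout and 36.7 ± 8.84 and 13.5 ± 2.43 TPM in wild type (SD, n = 3). A gene model described only as an ethylene receptor, Solyc09g065310, was listed at 10.1 TPM in knockout 3 and at 0 in the other 5 libraries, and is not part of the receptor pool.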
